A study of Rattus norvegicus with 46 samples.

Results

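The libraries of 30 ischemic rat brain lesions were ordered by the RNA of 4 genes that myeloid cells express. The 10 lesions with the highest score are called myeloid-rich and the 10 with the lowest myeloid-poor, which makes 20 of the 46 libraries of the series. The score of a library is the mean over Cd68, Ptprc, Csf1r and Itgb2 of log2(CPM + 1), where CPM is a gene's count scaled by the library's total. The split therefore uses the expression readout itself, so every rich-against-poor difference in expression below is a description of these libraries and carries no p-value. Counts of genes leave the 4 scoring genes out, except in the diet and interaction fits, which keep them. Tests are given only for diet, MCAO, library depth and pairs of scoring genes in intact brain.

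Myeloid cells of the brain comprise resident microglia, macrophages at its borders and, after a stroke, monocytes and other leukocytes from the blood. They clear dead tissue, and their numbers and states change over the weeks in which a lesion is remodelled. Of the scoring genes, Csf1r encodes the receptor for the growth factors CSF1 and IL-34, on which microglia depend for survival. Ptprc encodes CD45, a phosphatase carried by white blood cells in general. Itgb2 encodes the beta-2 integrin chain (CD18) of leukocyte adhesion receptors, and Cd68 a glycoprotein of phagocyte lysosomes. Ptprc and Itgb2 are also expressed by lymphocytes, so the score is not specific to myeloid cells.

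All rats were male Wistar rats aged 3 months. In the lesion groups the middle cerebral artery was occluded (MCAO), a model of ischemic stroke, and RNA was taken from the lesion 14 days later. The standard diet (called ad libitum in the sample titles; 11 lesions) gave 11% of energy as fat and 65% as carbohydrate. The ketogenic diet (19 lesions) gave 84% as fat and 5% as carbohydrate. Each diet was eaten for 2 months before MCAO and for 2 weeks after it, and 8 intact brains per diet served as the other groups. Lesions are named below by diet and sample number. Library totals ran from 16612158 to 24562681 counts in rich lesions, from 15982546 to 30601841 in poor lesions and from 8883068 to 20420918 in intact brain. Whether each library came from a separate rat is not stated in the labels, so p-values measure the spread between libraries.

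Only the 4 scoring genes can be named. Genes carry Ensembl IDs in the files, with no symbols, and a RefSeq rat gene table paired 0 of these 30452 IDs with a symbol. The names of the 4 genes come from the rule that defines the score. The label "myeloid" thus rests on these genes alone, and markers of other cell types were not analysed. The largest differences are shown by ID, at most 2 in each direction.

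The rich class held narrow scores and the poor class wide ones. Rich scores ran from 8.203 to 8.75 with a median of 8.42, and poor scores from 4.89 to 7.47 with a median of 6.72. The 3 rich lesions on the standard diet, numbers 66, 78 and 67, scored 8.21, 8.47 and 8.48. The 3 poor lesions on that diet, numbers 71, 70 and 82, scored 6.12, 6.94 and 7.09. The 7 rich ketogenic lesions ran from 8.203 to 8.75 and the 7 poor ones from 4.89 to 7.47. The scores thus form a dense upper end and a long lower tail, with ketogenic lesions 27, 9 and 31 lowest, at 4.89, 5.61 and 5.78. At the upper boundary, ketogenic lesion 23 was the last rich one at 8.203 and standard lesion 61 the first outside at 8.16. At the lower boundary, ketogenic lesion 21 was the highest poor one at 7.47 and standard lesion 64 the first outside at 7.67. The plot of the score by library shows that the split cuts through a continuum and not between clusters.

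**Figure D1:**
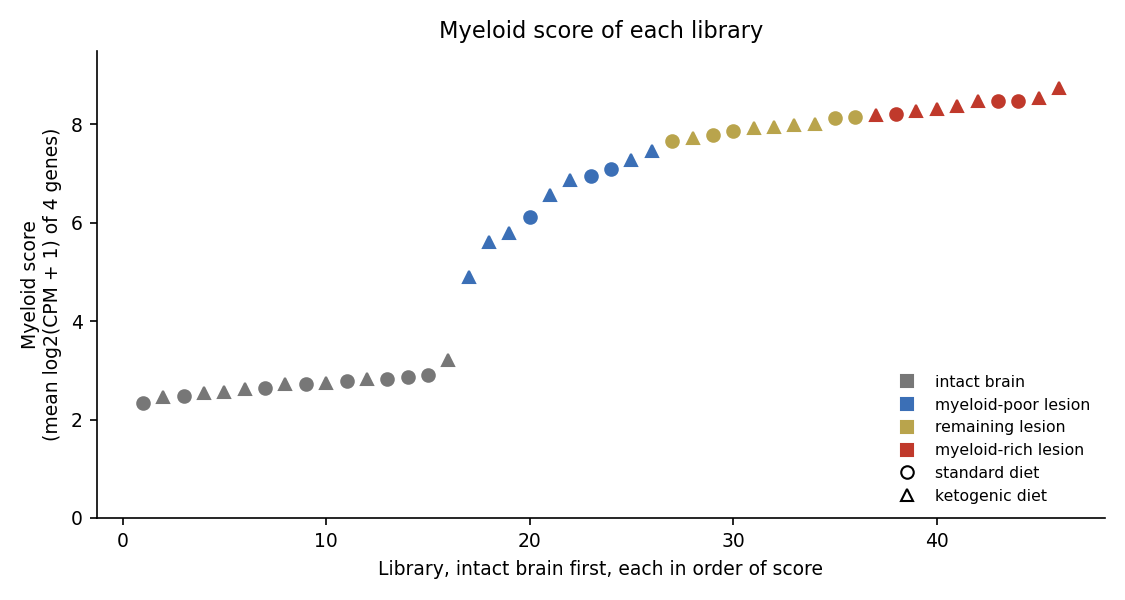
Myeloid score (mean log2(CPM + 1) of the 4 scoring genes) of all 46 libraries, intact brain first and each tissue in order of score; colour gives the class and shape the diet. The lowest lesion lies at 4.89, above the highest intact library at 3.21, and the lesions run on to 8.75 without a break at the class boundaries.

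Even the poor lesions lay well above intact brain. Intact libraries scored from 2.33 to 3.21, and 30 of 30 lesions lay above all of them. On the standard diet the mean score was 7.72 ± 0.73 (SD, n = 11) in lesions and 2.69 ± 0.20 (SD, n = 8) in intact brain (exact permutation p = 2.65e-05, adjusted p = 2.65e-05 over 2 comparisons, two-sided). On the ketogenic diet it was 7.53 ± 1.10 (SD, n = 19) and 2.71 ± 0.24 (SD, n = 8), with an exact permutation p of 9.01e-07 (adjusted p = 1.80e-06). This test uses the MCAO label and all lesions, not the split. In bulk RNA, more myeloid cells and more of these RNAs per cell cannot be told apart.

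The 4 scoring genes were not equally spread within the classes. Cd68 ran from 134 to 404 CPM in rich lesions (median 233) and from 12.2 to 151 CPM in poor ones (median 72.4), against 0 to 1.80 CPM in intact brain. Csf1r ran from 905 to 2086 CPM in rich lesions and from 190 to 836 CPM in poor ones, and it was already at 42.6 to 84.1 CPM in intact brain. The ranges of rich and poor do not meet for Csf1r, while for Cd68 the highest poor lesion lay above the lowest rich one. Ptprc ran from 91.0 to 142 CPM in rich, from 6.93 to 49.6 CPM in poor and from 1.16 to 4.21 CPM in intact libraries. Itgb2 ran from 302 to 492 CPM in rich, from 38.1 to 221 CPM in poor and from 1.78 to 6.66 CPM in intact libraries. Neither of these genes overlaps between rich and poor. Within the rich class the most Cd68 and the most Csf1r lay in different lesions. Ketogenic lesion 15 had the most Cd68, at 404 CPM, with 1038 CPM of Csf1r. Ketogenic lesion 37 had the most Csf1r, at 2086 CPM, with 231 CPM of Cd68. A class picked for a high mean of these genes favours such a trade between them. Over all 30 lesions Cd68 and Csf1r had a Pearson r of 0.83, given as a description.

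**Figure D2:**
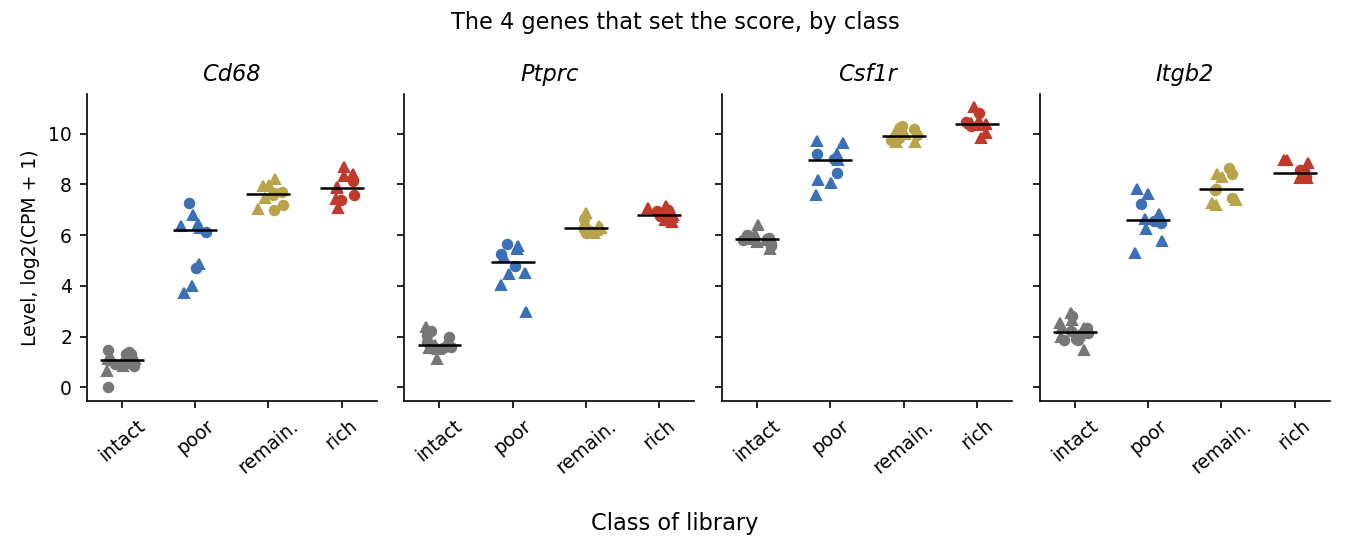
Level of each scoring gene (log2(CPM + 1)) in every library by class; bars are class medians, colour gives the class and shape the diet. Class differences follow from the rule, and the panels show how far the poor lesions reach down towards intact brain, where Cd68 is at 0 to 1.80 CPM.

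In intact brain, libraries that the split did not use, the scoring genes moved together far less. Across the 16 intact libraries Csf1r and Itgb2 were correlated, with a Pearson r of 0.65 (permutation p = 0.00595, adjusted p = 0.0357 over 6 pairs) and a Spearman rho of 0.67 (permutation p = 0.00549, adjusted p = 0.0329). Without the 2 libraries farthest from the median of Csf1r r was 0.53, and within diets it was 0.69 (standard, n = 8) and 0.62 (ketogenic, n = 8). The other 5 pairs did not pass, with r from 0.033 to 0.32 and adjusted permutation p from 0.584 to 0.904 (for rho, adjusted p from 0.499 to 0.848). Cd68, Ptprc and Itgb2 are low in intact brain, with medians of 1.09, 2.17 and 3.51 CPM, so counting error weighs more there. In the 30 lesions, which the score was built on, the same 6 pairs had r from 0.76 (Cd68 with Itgb2) to 0.95 (Csf1r with Itgb2), given as a description.

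The diets were evenly placed in the split. Of the 10 rich lesions 3 came from standard-diet and 7 from ketogenic rats, and the 10 poor lesions held the same numbers (Fisher's exact test, p = 1, two-sided). Over all 30 lesions the score was 0.19 lower on the ketogenic diet, with a 95% interval from -0.88 to 0.49, and this difference did not pass (two-sided permutation p = 0.621, 100000 resamples). An interval this wide does not show that the diets are alike in score.

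Depth moved with the score in part. Poor lesions had 21457971 ± 4250995 counts (SD, n = 10) and rich lesions 19383152 ± 2222540 (SD, n = 10), a difference that did not pass (permutation p = 0.192, adjusted p = 0.359 over 2 measures). Over all 30 lesions score and total had a Pearson r of -0.51 (permutation p = 0.00493, adjusted p = 0.00986), but Spearman's rho was -0.25 (permutation p = 0.173, adjusted p = 0.346). Without the 2 libraries farthest from the median total r was -0.35. Within the standard diet r was 0.17 (n = 11) and within the ketogenic diet -0.61 (n = 19), so the relation was not seen in both diets. The poor lesion with the lowest score, ketogenic 27, was also the deepest library. The share of counts in the 20 most abundant genes was 12.4% ± 0.56 (SD, n = 10) in rich and 12.8% ± 1.3 (SD, n = 10) in poor lesions (permutation p = 0.359, adjusted p = 0.359). Its correlation with the score did not pass over the 30 lesions (r = -0.16, permutation p = 0.387, adjusted p = 0.387; rho = -0.024, permutation p = 0.902, adjusted p = 0.902), and r was 0.30 without the 2 farthest libraries, -0.70 within the standard diet and -0.025 within the ketogenic diet.

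The comparison of rich with poor lesions asked which other genes go with the myeloid score. Among 16052 other genes past the low-count filter, 1822 (11.4%) were at least 2-fold higher and 944 (5.88%) at least 2-fold lower in rich lesions, by edgeR's fitted difference with diet as covariate. Large differences were mostly on the higher side: 135 genes were at least 4-fold higher and 15 lower, 20 were at least 8-fold higher and 1 lower, and 4 were at least 16-fold higher and 0 lower. The median size of a difference over all genes was 0.42 on the log2 scale, and the median SE was 0.13. For 816 genes (5.08%) every rich lesion had a higher CPM than every poor one, and for 881 genes (5.49%) every rich lesion had a lower one. All of these counts are descriptions, since libraries picked for high expression of some genes differ in every gene that varies with them.

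**Figure D3:**
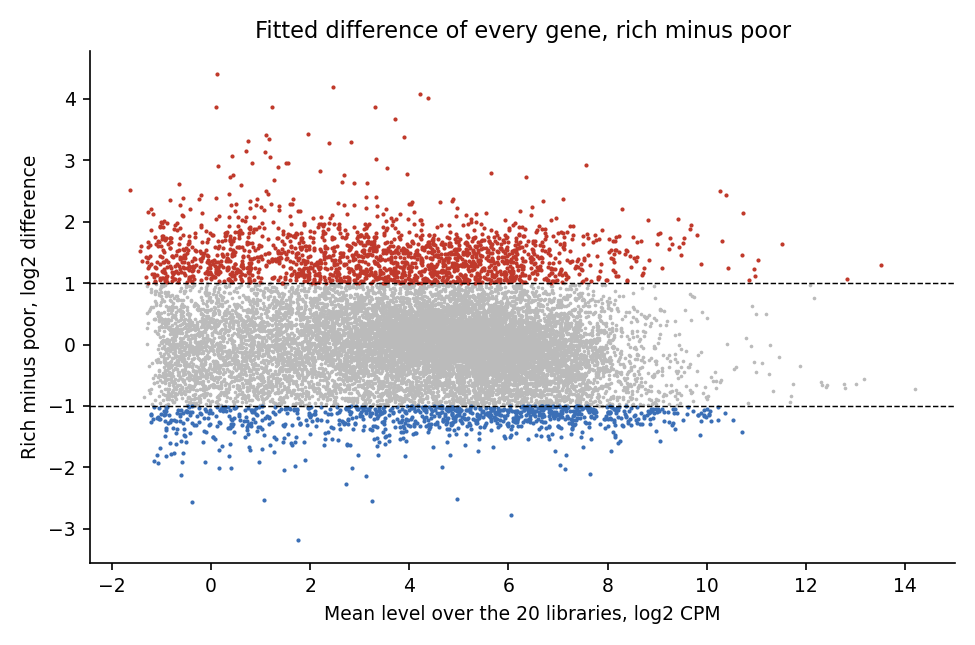
Fitted log2 difference, rich minus poor, of each of 16052 genes (y axis) against its mean level in log2 CPM (x axis); dashed lines mark 2-fold, red points lie above and blue points below them. Differences past 2-fold occur at all levels, 1822 upward and 944 downward, and the upper cloud reaches farther from 0.

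The size of these counts depends on the split and the scaling. Of the genes past 2-fold, 65.9% were higher with TMM scaling and 76.8% with library totals only, where 618 were lower and the median of all genes was 0.12 in place of 0.02 (log2); with the 15 highest set against the 15 lowest lesions 333 were higher and 68 lower. Without Cd68 in the score, 8 rich and 9 poor lesions stayed in their class, and the counts were 1087 higher and 459 lower, with non-overlapping ranges for 420 higher and 35 lower genes.

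The difference had the same direction in both diets for nearly all of these genes. Of the higher genes, 1658 could be fitted in each diet alone; all 1658 were higher in rich ketogenic lesions (7 against 7) and 1645 in rich standard-diet lesions (3 against 3). Of the 885 lower genes that could be fitted in each diet, 885 were lower in ketogenic and 883 in standard-diet rich lesions. The median differences were larger on the ketogenic diet, at 1.495 against 1.17 for higher and -1.29 against -0.81 for lower genes on the log2 scale. At least 2-fold in both diets were 1073 higher and 159 lower genes. The ketogenic poor class also reached lower scores (to 4.89, against 6.12), and the genes were chosen on these same libraries, so the directions are not independent support.

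Intact brain and the 10 lesions left out of the split show where the classes lie. Of the 1822 higher genes, 1711 (93.9%) had a poor-class median above the intact median, against 52.8% of all genes tested. For 1132 of them (62.1%, against 10.2%) the poor median was at least 2-fold above intact brain. Rich lesions thus lay farther out in a direction that poor lesions also took for most of these genes. For the lower genes, 36 of 944 (3.81%, against 1.81% of all genes) had a poor median at or under 50% of intact, and 293 (31.0%) had a poor median above intact. In rich lesions 741 of the 944 (78.5%, against 12.7%) were at or under 50% of the intact median. The choice of these genes by a low rich level favours this pattern.

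The 10 remaining lesions were mostly intermediate. Their median lay between those of rich and poor for 1476 of the higher genes (81.0%) and 901 of the lower genes (95.4%), against 69.2% of all genes. For 335 higher genes (18.4%) it lay above both classes, close to the 17.5% of all genes. Medians were in the order intact, poor, remaining and rich for 1414 of the higher genes (77.6%, against 24.6%), and in the reverse order for 633 of the lower genes (67.1%, against 22.4%). These shares are not like for like, since all genes include those that run the other way. The sets were also chosen by their gap between rich and poor, which favours both the order and a median in between.

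Library by library, the poor class ran from near intact brain into the range of the rich class over the higher genes. As the median over the 1822 higher genes, poor lesions lay 0.14 to 1.47 above the intact mean on the log2 scale (median 0.67), remaining lesions 1.21 to 2.38 (median 1.80) and rich lesions 1.33 to 2.38 (median 2.15). Intact libraries lay between -0.11 and 0.16. Ketogenic lesion 27 was the lowest at 0.14, next to intact brain, while poor lesions 82 (standard) and 3 (ketogenic), at 1.47 and 1.36, lay above the lowest rich lesion, ketogenic 43 at 1.33. Over the 944 lower genes poor lesions ran from -0.58 to 0.22, and rich lesions from -1.65 to -0.79, with no overlap. The choice of the genes on these same libraries favours that gap. Of all lesions ketogenic 5 was lowest over the lower genes, at -1.80, although its score of 7.94 put it among the remaining lesions.

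**Figure D4:**
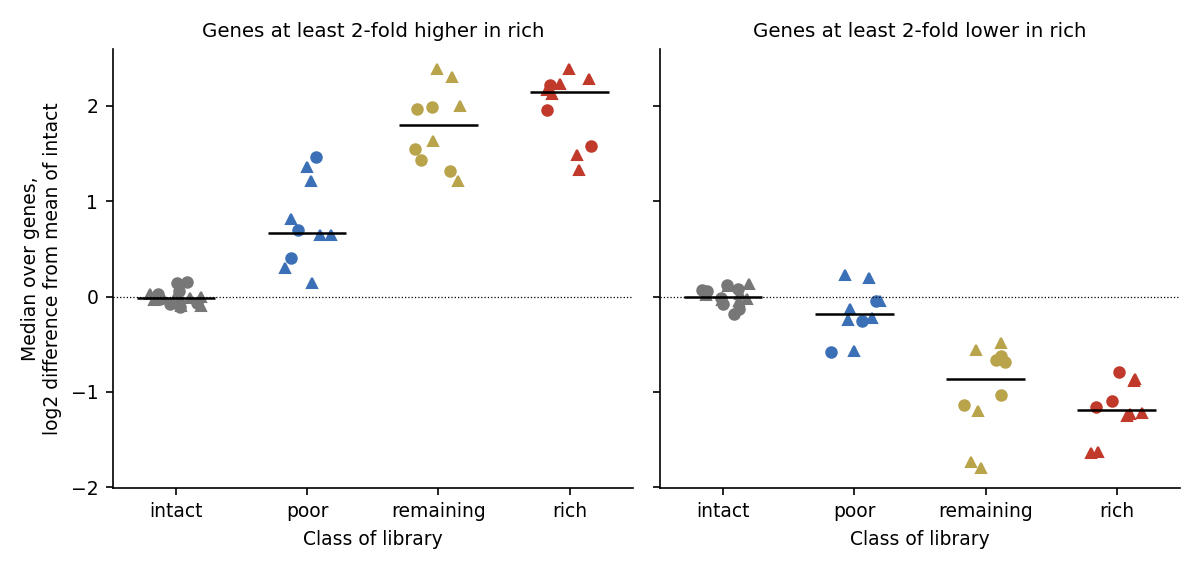
Median over the genes at least 2-fold higher (left) or lower (right) in rich lesions of each library's log2(CPM + 1) minus the mean of intact brain; each point is a library, bars are class medians, colour gives the class and shape the diet. Genes were chosen on the rich and poor libraries; intact libraries stay near 0, poor lesions reach 1.47 on the left and -0.58 on the right, and remaining lesions overlap the rich class.

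The leading axes of variation among lesions followed the myeloid score in part. Over 14684 genes without the scoring genes, the first principal component held 62.6% of the variance among the 30 lesions and the second 10.2%. The score had a Pearson r of 0.79 with the first and 0.57 with the second over these 30 lesions, which share their libraries with the score. On the first, 7 of 10 rich lesions lay beyond all poor ones, but the far end was taken by ketogenic lesions 39 and 5, which scored 7.94 and 7.94 and belong to neither class. Rich lesions themselves spread from rank 3 (ketogenic 33) to rank 19 (ketogenic 43) of 30 on it. Poor lesion 82 ranked 13, ahead of rich lesions 23, 66 and 43. On the second component rich lesions ran from rank 1 (ketogenic 43) to rank 23 (ketogenic 7). The 7 rich lesions beyond all poor ones on the first component had 189 to 404 CPM of Cd68, and rich lesions 23, 66 and 43, near its middle, had 169, 165 and 134 CPM. The other scoring genes did not divide them so. Csf1r was 905 to 2086 CPM in those 7 and 1431, 1394 and 1322 CPM in lesions 23, 66 and 43. Itgb2 was 302 to 492 CPM against 336, 310 and 491 CPM, and Ptprc 94.9 to 142 CPM against 91.0, 105 and 105 CPM.

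**Figure D5:**
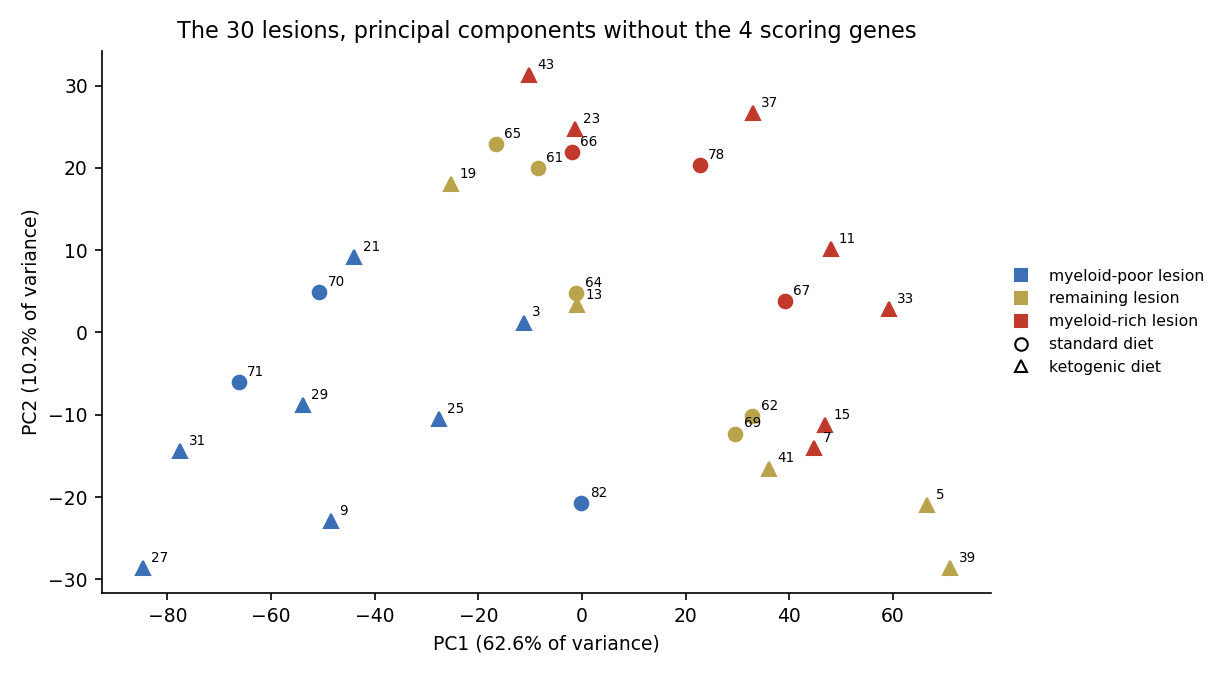
The 30 lesions on the first and second principal components of log2(CPM + 1), computed without the scoring genes; axes give the share of variance, colour the class, shape the diet and labels the sample number. Rich and poor lesions occupy different regions, and remaining lesions 39 and 5 lie at the end of the first component, beyond every rich lesion.

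The IDs with the largest differences were high in a part of each class. ENSRNOG00000010507 ran from 0.055 to 28.05 CPM in rich lesions (median 2.36) and from 0 to 5.94 CPM in poor ones (median 0.047), a fitted log2 difference of 4.20 (SE 1.17). Rich lesions 67, 33, 15 and 7 held 17.4 to 28.05 CPM, while the other 6 stayed at or under 2.94 CPM, and only these 4 lay above all poor lesions. It was at 0 counts in 15 of 16 intact libraries. Its level was near 0 in most poor lesions, and without the diet covariate it did not pass the low-count filter. ENSRNOG00000030187 ran from 0.33 to 102 CPM in rich lesions (median 6.34) and from 0 to 25.6 CPM in poor ones (median 0.21), with a log2 difference of 4.08 (SE 1.22). Here too lesions 67, 33, 15 and 7 were the high ones, at 61.5 CPM or more against at most 7.05 CPM in the other 6. In the remaining lesions, which belong to neither class, the medians of these IDs were 3.23 and 7.07 CPM. Both lay above the rich medians of 2.36 and 6.34 CPM. The highest remaining lesions held 15.3 and 35.6 CPM, below those 4 rich lesions. Over all lesions the Spearman rho with the score was 0.56 and 0.55, so a high level of these IDs was not a mark of the rich class as a whole. The highest poor lesion was standard lesion 82 for both IDs, and without it the log2 differences were 5.62 and 5.25. These IDs depended on the split: without Cd68 in the score the log2 differences were 1.18 and 1.39, and with 15 against 15 lesions 0.93 and 1.31. For ENSRNOG00000010507 the difference was 5.75 in ketogenic and 1.63 in standard-diet lesions, and for ENSRNOG00000030187 5.14 and 2.01.

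On the lower side, ENSRNOG00000017712 ran from 0.14 to 1.68 CPM in rich lesions (median 0.35) and from 0.37 to 12.5 CPM in poor ones (median 4.83), a log2 difference of -3.17 (SE 0.62). In 6 of 10 rich lesions it lay below all poor lesions, and the poor lesions 82 and 3 were as low as rich ones. Intact brain ran from 0.77 to 29.4 CPM with a median of 9.98. Its difference was -1.63 with 15 against 15 lesions, and -2.02 in standard-diet against -3.70 in ketogenic lesions. ENSRNOG00000065021 had the next largest difference, at -2.77 (SE 1.14), but it was set by a few libraries. In poor lesions 4 libraries (ketogenic 29 and 9, standard 71 and 70) held 193 to 396 CPM and the other 6 at most 7.91 CPM. In rich lesions ketogenic 37 held 121 CPM and the other 9 at most 8.58 CPM. High values of it occurred in intact brain as well, up to 496 CPM against a median of 4.37, so each class held libraries with a high level of it. The difference ran from -4.25 to -1.88 when single libraries were left out, the former without ketogenic lesion 37 and the latter without ketogenic lesion 9.

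The IDs that followed the score most closely were others, and their differences were modest. ENSRNOG00000011150 had a Spearman rho of 0.97 with the score over the 30 lesions, at 358 to 524 CPM in rich, 157 to 263 CPM in poor and 108 to 143 CPM in intact libraries (log2 difference 1.03, SE 0.10). ENSRNOG00000023317 also had a rho of 0.97, at 105 to 180 CPM in rich, 37.4 to 76.7 CPM in poor and 23.1 to 28.9 CPM in intact libraries (log2 difference 1.21, SE 0.14). For both IDs 10 of 10 rich lesions lay above all poor ones, as for 816 of 16052 genes (5.08%). The score also sets the classes, so a choice by rho with it nearly fixes such a gap in advance. The most opposite were ENSRNOG00000020552, at 5.95 to 8.62 CPM in rich and 9.09 to 13.6 CPM in poor lesions, and ENSRNOG00000067479, at 80.9 to 135 CPM in rich and 138 to 215 CPM in poor lesions, each with a rho of -0.91. Their log2 differences were -0.66 (SE 0.095) and -0.67 (SE 0.10). By the same choice 10 of 10 rich lesions lay below all poor ones, as for 881 of 16052 genes (5.49%). A rho of at least 0.9 was reached by 208 of 14658 genes (1.42%) and a rho of -0.9 or below by 4. These correlations share their libraries and totals with the score and are given without a p.

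Diet was a label that the split did not use, and its effect at fixed myeloid class was tested over the 20 libraries. Class did not hold the score equal between diets. Mean scores were 6.35 (ketogenic) and 6.72 (standard) in poor lesions, and 8.42 and 8.39 in rich ones. Sample numbers also split by diet, with ketogenic ones up to 59 and standard-diet ones from 61. Diet and any order behind these numbers cannot be told apart. With edgeR's quasi-likelihood test 0 of 16056 genes (0%) passed an adjusted p of 0.05, and the smallest was 0.0702. An unadjusted p under 0.05 was found for 2788 genes, 1330 of them higher and 1458 lower with ketogenic feeding. The mean with no diet difference in any gene would be 802.8. When single libraries were left out, the count ran from 2104 to 3099. Genes vary together, so such counts can lie far from their mean, and an excess was not tested. For 91.0% of genes the 95% interval of this difference stayed inside 2-fold, and for 68.1% inside 1.5-fold. The smallest p belonged to ENSRNOG00000010185. Ketogenic rich lesions held 17.4 ± 2.5 CPM of it (SD, n = 7) and standard-diet rich lesions 22.9 ± 1.2 CPM (SD, n = 3). Ketogenic poor lesions held 22.7 ± 3.1 CPM (SD, n = 7) and standard-diet poor lesions 34.2 ± 1.4 CPM (SD, n = 3), for a log2 difference of -0.50 (SE 0.088, edgeR adjusted p = 0.0702), which did not pass. ENSRNOG00000010248 was next, with a log2 difference of -0.70 (SE 0.13, edgeR adjusted p = 0.0702). It was 79.9 ± 25.3 against 126.2 ± 16.9 CPM in rich and 139 ± 22.5 against 231 ± 19.3 CPM in poor lesions. Over 27 alternatives the adjusted p ran from 0.00145 to 0.194 for the former and from 0.00277 to 0.194 for the latter.

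The count of diet calls depended on the fit. DESeq2 called 589 genes on these 20 libraries, of which 286 were higher and 303 lower with ketogenic feeding, and edgeR called 986 over all 30 lesions with the score as a linear covariate, 468 higher and 518 lower. Leaving out standard-diet lesion 67 gave 195 calls, ketogenic lesion 37 gave 137, ketogenic lesion 23 gave 26 and ketogenic lesion 27 gave 1.

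Whether the diet difference was unequal in rich and poor lesions was tested as an interaction. With edgeR 0 of 16338 genes (0%) passed, and the smallest adjusted p was 0.886. An unadjusted p under 0.05 was found for 557 genes, where the mean with no interaction in any gene would be 817. When single libraries were left out, the count of such genes ran from 171 to 1157. DESeq2 also called 0 genes. With 3 standard-diet libraries in each class the intervals were wide: the 95% interval stayed inside 2-fold for 61.8% and inside 1.5-fold for 29.1% of genes, so unequal responses are not shown to be absent. ENSRNOG00000050562 had the smallest p (log2 interaction 0.66, SE 0.18, edgeR adjusted p = 0.886). It was 8.42 ± 0.84 CPM on the ketogenic against 7.76 ± 1.3 CPM on the standard diet in rich lesions, and 6.27 ± 0.47 against 9.23 ± 1.0 CPM in poor ones. ENSRNOG00000024028 followed (log2 interaction -2.61, SE 0.70, edgeR adjusted p = 0.886), with a mean at or under 1.07 CPM in each of the 4 groups. Neither passed, and over 27 alternatives the adjusted p of each ran from 0.646 to 1.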

How the data were processed

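The authors deposited raw, unnormalized gene counts of 46 libraries over 30452 gene IDs; the series-wide table and the per-sample files differed in 0 cells. Another 39 per-sample columns of that table match none of the 46 libraries and were not used. Per the labels' protocols, RNA was column-purified and polyA libraries were made with a directional kit. The submitters' processing notes list HISAT2 2.0.5, HTSeq 0.7.2 and build mRatBN7.2; the annotation release and strand setting are not given in the sources used here, and reads of a gene and its overlapping or antisense partner may be mixed.

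Fits used edgeR 4.0.16 under R 4.3.3, with robust quasi-likelihood, TMM scaling and filterByExpr, over the 20 split libraries with diet as covariate; p-values of diet and interaction were adjusted (Benjamini-Hochberg) over all genes tested, and those of rich minus poor were not used. The SE is the log2 difference over the square root of F. The score uses CPM from library totals; other CPM values use TMM scaling over the 46 libraries. Permutation tests used 100000 resamples, or were exact with 8 libraries in a group. The difference fits were checked on simulated data. Libraries of one group all differed beyond sampling noise, with a chi-square per degree of freedom of at least 12.8.

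The members, lists, rule and alternatives were chosen with earlier results of these data known. IDs were named by rule: the largest differences at a mean of at least 1 CPM, the IDs most like the score, and the smallest p. Without gene names this was narrowed to 2 IDs per direction, and 30 gene lists with 422 symbols were not tested. Alternatives were DESeq2 1.42.0, RLE scaling, library totals only, other filters, splits and scores, each diet alone, and leaving out each library. Thinning to the smallest total and the total as covariate were added after seeing the data.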

Additional observations from a re-analysis of the deposited data

Results flagged for a closer look

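In 31 groups of 8 or 10 libraries the highest or lowest library was checked for a gap to the others that is large against the range of its group. Of these groups 4 were flagged. Chance would flag about 1 in 20 if groups were independent, but they share libraries. All flags except that of total counts fall on IDs chosen for their large differences, so the number flagged shows no excess over chance. Among rich lesions, ketogenic 15 had a total of 24562681 counts, against at most 20181790 in the other 9. Among poor lesions, standard lesion 82 held 5.94 CPM of ENSRNOG00000010507 and 25.6 CPM of ENSRNOG00000030187, against at most 0.79 and 3.61 CPM in the others. It is the same lesion that lay nearest the rich class on the first principal component among poor lesions. Among rich lesions, ketogenic 37 held 121 CPM of ENSRNOG00000065021, against at most 8.58 CPM in the others.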

How the results depend on the processing

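Among the gene counts, the differences of named IDs in rich minus poor, score by diet and depth by class, 0 of 527 values changed direction under the alternatives run. A count of genes has a preset direction and cannot turn, and the named IDs were chosen on these same libraries. The 0 is therefore no measure of robustness for them. The correlations of score with depth were not among the 527 values and did turn: with the total, r was -0.51 over all lesions and 0.17 within the standard diet, and with the top-20 share -0.16 and, without 2 libraries, 0.30. The median difference of all genes, 0.02, was also just below 0 under some settings, such as -0.0028 without the diet covariate. Counts of genes moved with the split: with 5 against 5 lesions 2235 genes were at least 2-fold lower, and the class ranges were apart for 4040 higher and 3794 lower genes. With 15 against 15 lesions, 333 were 2-fold higher and 68 lower, and ranges were apart for 12 and 0. A split made within each diet gave 451 and 347 genes without overlap. Ketogenic lesions alone gave 1604 and 1772, and standard-diet lesions alone 2894 and 3393, with 220 at least 2-fold lower; fewer libraries leave fewer chances to overlap. Without Cd68 in the score, 1087 were 2-fold higher and 459 lower, with 420 and 35 without overlap, and without Ptprc 520 lower genes had no overlap; the cause was not tested. With library totals only 618 genes, and with no low-count filter, which tests more genes, 1620 genes were at least 2-fold lower. Leaving out single libraries gave 1591 to 2051 higher and 779 to 1121 lower genes past 2-fold, and 818 to 1174 higher and 882 to 1315 lower genes without overlap. Diet calls at fixed class were 100 with library totals only, 589 with DESeq2 and 986 with the score as covariate over 30 lesions, and ran from 0 to 195 when single libraries were left out; the cause was not tested. The interaction ran from 0 to 1 calls, the 1 without standard-diet lesion 67. Score by diet and depth by class kept their side of the threshold under the alternatives run. No paired analysis was possible because the groups share no sample numbers. The planned list medians were not run, since IDs carry no gene names. ENSRNOG00000010507 gave no value without the diet covariate, since it did not pass the low-count filter of that fit. Low counts limit the largest fold differences, whose SE was up to 1.22.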
